A study of Mus musculus with 2 samples.

Results

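The 10 genes described here encode the 5 subunits of the transcription factor NF-kB (Nfkb1, Nfkb2, Rel, Rela and Relb), 3 of its IkB inhibitors (Nfkbia, Nfkbib and Nfkbie) and 2 enzymes that act on the same pathway and are themselves induced by it (Tnfaip3 and Birc3). They were taken from 34650 gene names on the array by matching the printed gene name of every non-control probe, which gave 16 probes on 17 spots. The matching used gene names, and the genes themselves were picked with earlier results of these data known, so their counts are a description. Messenger RNA was measured on 2 one-colour Agilent arrays, 1 for each cell state. Both states were derived from the line E14Tg2A, which consists of embryonic stem (ES) cells of the mouse strain 129/Ola, and both received Activin A at 20 ng/mL and FGF2 at 12 ng/mL in chemically defined medium with N2 and B27. In EpiSC these factors were given to ES cells grown on gelatin, and in ELA-EpiSC they were given to Epiblast-Like Aggregates (ELA) made from the same line. RNA of 3 experiments was pooled before each hybridization, so the experiments' own spread was lost and no test between the states could be made. The states were read from the titles and descriptions of the samples, because their source fields name other material (an Argonaute immunoprecipitate for EpiSC and total RNA of day 0 cells for ELA-EpiSC).

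NF-kB proteins act as dimers. In the canonical branch, dimers containing Rela are held in the cytoplasm by IkB proteins until the IkB kinase complex marks these inhibitors for destruction. In the non-canonical branch, the kinase NIK triggers the processing of the Nfkb2 precursor to a smaller protein that pairs with Relb. Several genes of both branches are direct NF-kB targets, which gives the pathway feedback loops. Nfkbia and Tnfaip3 are textbook negative ones, and Nfkb2 and Relb are targets that themselves encode subunits.

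The sequence just before the start of these genes is shown first, because a gene under feedback of this kind can carry NF-kB binding motifs there. The RefSeq promoter table (GRCm38.p6) held 8 of the 10 members, with Nfkb1 and Relb not listed, in 11 windows from 250 bases before to 50 bases after an annotated start. The kB consensus motif of 10 bases was searched on both strands, and matches to it could overlap each other. Nfkb2, Tnfaip3, Nfkbie, Nfkbia and Rel, 5 of the 8 members, had at least 1 match, and Rela, Nfkbib and Birc3 had none. Of all 32851 windows in the table, 2779 (8.46%) had a match, and of the members' 11 windows 7 had one. Below are the 250 bases upstream of the start in the 5 members with one, each written 5′ to 3′ on the strand of its gene with the matches in capitals. They lie at chr19:46304487-46304736 (plus strand) for Nfkb2, chr10:19015411-19015660 (minus) for Tnfaip3, chr17:45555450-45555699 (plus) for Nfkbie, chr12:55492648-55492897 (minus) for Nfkbia and chr11:23770970-23771219 (minus) for Rel.
Nfkb2: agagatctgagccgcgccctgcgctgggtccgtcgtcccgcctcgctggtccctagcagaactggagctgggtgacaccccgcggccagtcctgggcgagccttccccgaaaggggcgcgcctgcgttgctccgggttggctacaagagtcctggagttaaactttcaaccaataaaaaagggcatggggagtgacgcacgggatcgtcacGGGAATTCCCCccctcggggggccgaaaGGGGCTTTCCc
Tnfaip3: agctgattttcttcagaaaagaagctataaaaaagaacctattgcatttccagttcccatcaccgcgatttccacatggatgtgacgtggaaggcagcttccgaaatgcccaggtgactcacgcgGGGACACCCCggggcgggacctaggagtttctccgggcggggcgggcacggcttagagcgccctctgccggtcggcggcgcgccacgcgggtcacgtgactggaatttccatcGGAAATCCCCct
Nfkbie: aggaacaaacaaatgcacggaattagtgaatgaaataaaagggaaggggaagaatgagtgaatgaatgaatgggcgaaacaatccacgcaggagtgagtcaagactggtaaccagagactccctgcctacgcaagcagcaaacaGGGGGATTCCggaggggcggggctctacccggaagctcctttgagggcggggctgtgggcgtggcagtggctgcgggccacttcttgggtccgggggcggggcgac
Nfkbia: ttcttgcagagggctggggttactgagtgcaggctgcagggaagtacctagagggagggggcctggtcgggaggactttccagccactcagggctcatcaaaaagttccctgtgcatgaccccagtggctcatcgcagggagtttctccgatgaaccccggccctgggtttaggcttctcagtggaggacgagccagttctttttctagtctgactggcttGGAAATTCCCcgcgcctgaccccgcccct
Rel: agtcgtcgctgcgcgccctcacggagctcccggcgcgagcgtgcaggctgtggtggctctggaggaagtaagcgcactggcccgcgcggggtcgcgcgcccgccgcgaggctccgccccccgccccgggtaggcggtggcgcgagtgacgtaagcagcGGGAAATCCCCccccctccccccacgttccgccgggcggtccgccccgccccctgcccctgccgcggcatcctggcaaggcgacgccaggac

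In Nfkb2 a pair of overlapping matches began at -39 and -38 and GGGGCTTTCC began at -11, counted in bases from the start. The other 2 annotated starts of Nfkb2, further into the gene, also had matches, 1 of them at the same genomic site in both windows. In Tnfaip3 the matches began at positions -125 and -12 from the start, and the window of its other annotated start had none. The single match of Nfkbie began at -106 and that of Nfkbia at -29, and the overlapping pair of Rel began at -92 and -91. A match is a run of letters and was not measured as bound in these cells. The members with a match included genes with a large difference between the arrays (Nfkb2, Tnfaip3 and Nfkbie) and one with a small difference (Nfkbia), and Birc3, whose difference was past 1, had no match in this window.

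**Figure D1:**
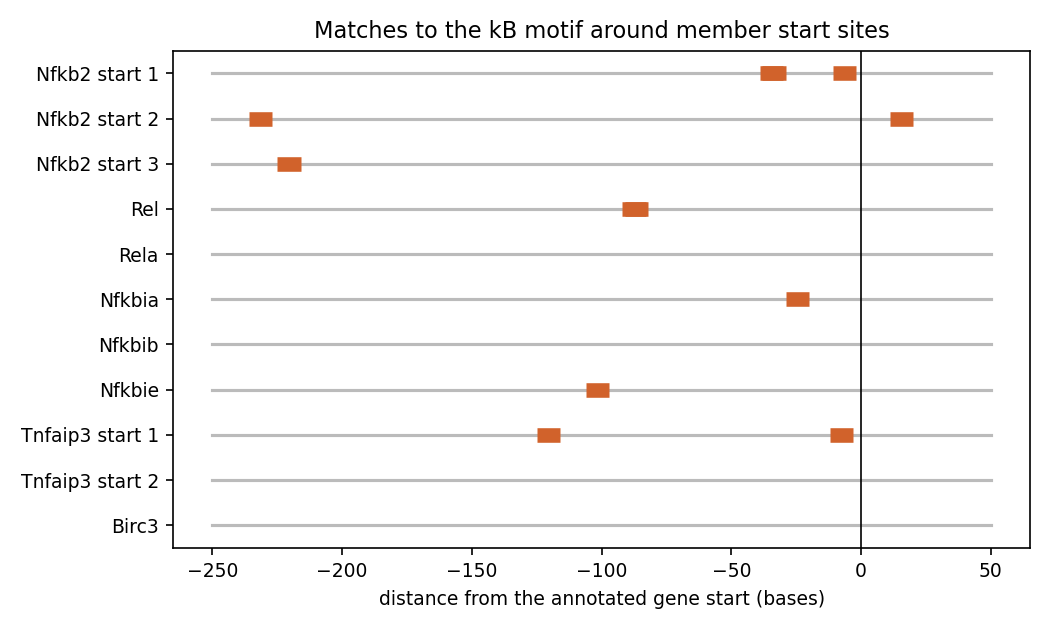
Position of kB motif matches (orange) along the 11 windows of 8 members, as distance in bases from the annotated gene start (vertical line). 5 of the members carry matches, most of them upstream of the start, while Rela, Nfkbib and Birc3 have empty windows.

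The values of the members are those of single probes of 60 bases, and 4 are shown to make plain what was hybridized. The Nfkb2 probe and the brighter Birc3 probe stand for members that differed between the states, and the Nfkbia probe and the second Nfkb1 probe for members that differed little. In mm9, the build of the array files, they lie at chr19:46386146-46386285, chr9:7854409-7854468, chr12:56590945-56591440 and chr3:135254550-135254609. The Nfkb2 and Nfkbia probes span 140 and 496 genomic bases and so cross a splice junction.
Nfkb2 probe: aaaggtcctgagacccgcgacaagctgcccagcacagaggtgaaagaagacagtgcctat
Birc3 probe 1: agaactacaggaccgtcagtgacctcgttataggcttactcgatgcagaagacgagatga
Nfkbia probe: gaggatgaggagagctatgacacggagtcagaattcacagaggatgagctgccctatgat
Nfkb1 probe 2: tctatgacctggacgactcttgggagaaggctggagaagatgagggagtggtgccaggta

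No probe of a member shared a run of 20 bases with a probe of another gene, none was flagged as an outlier and none was saturated. The levels below are log2 intensities after background correction and quantile normalization, and a difference is always ELA-EpiSC minus EpiSC. They serve to compare the states for 1 probe, not to rank the genes, since probes differ in how well they hybridize. A gene was counted when its brightest detected probe averaged at least 7.5 over both arrays, the minimum of the study's own methods, and a difference past 1, a doubling, was called. As an error, 312 probes printed 10 times on each array gave a spot SD of the difference of 0.10, which covers the printing and scanning of these arrays and not the spread between cultures.

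All 10 members had a detected probe and 9 were counted, with Rel under the minimum. The 9 counted members were all higher in ELA-EpiSC, 5 of them by more than 1 (Relb, Nfkb2, Tnfaip3, Nfkbie and Birc3), and none was lower. Birc3 (7.27 in EpiSC and 8.35 in ELA-EpiSC) passed the minimum only through its ELA-EpiSC level. Its place in both counts thus follows from the array where it was high. Among all 16653 counted genes 759 (4.56%) were higher in ELA-EpiSC by more than 1 and 745 (4.47%) were higher in EpiSC by more than 1. That split moved with the scaling, to 1114 and 516 genes with arrays set to equal medians and to 2621 and 320 with the spike-in probes. The median difference of the 9 members was 1.07, the value of Birc3, and with Rel included that of all 10 was 0.75. The median of all counted genes was 0.00, and their central 95% ran from -1.32 to 1.37. Of all counted genes 50.2% had a difference above 0. By probe, 15 of the 16 were higher in ELA-EpiSC and 6 were past 1, among them the overlapping Relb probes 1 and 2. The matching shares of all probes were not worked out. The sign of Relb probe 3 and Birc3 probe 2 turned under other scalings.

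**Figure D2:**
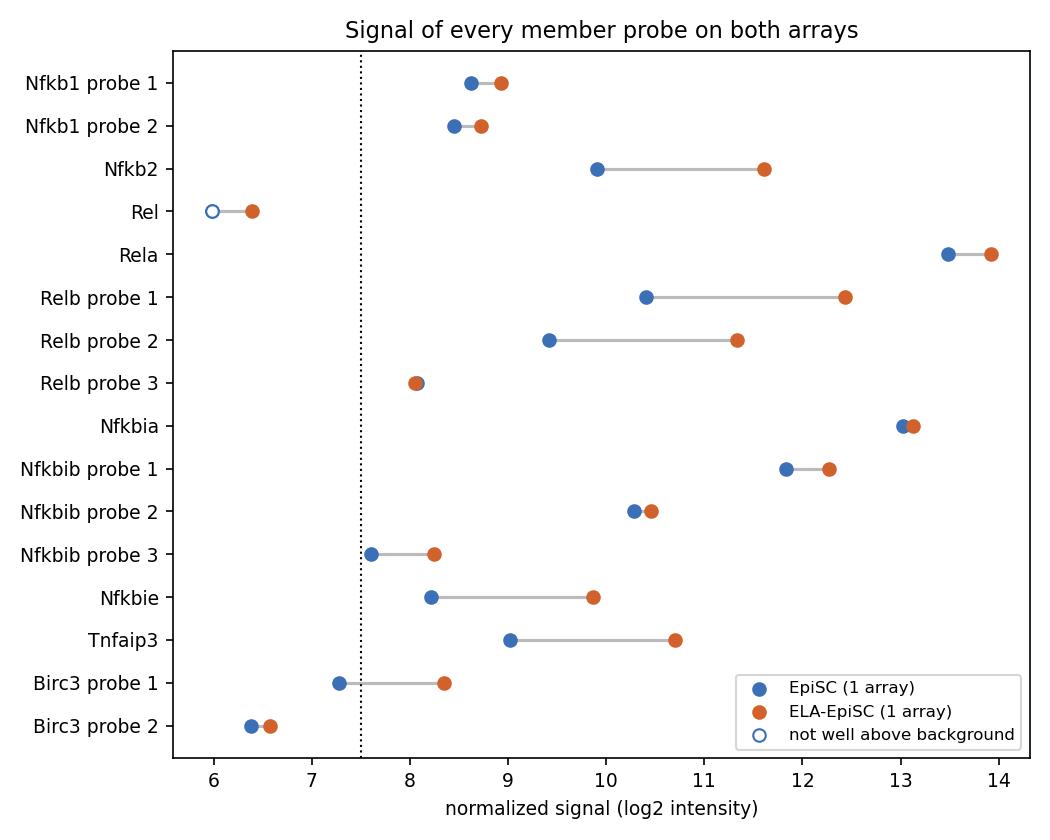
Normalized signal (log2 intensity) of all 16 member probes on the EpiSC array (blue) and the ELA-EpiSC array (orange), with the minimum of 7.5 for counted genes as a dotted line. The widest gaps are those of Relb probes 1 and 2, Nfkb2, Tnfaip3 and Nfkbie, and the Rel probe (open circle) was not well above background on the EpiSC array.

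Among the subunits, Relb differed most. It is the partner of processed Nfkb2 in the non-canonical branch, and its brightest probe (mm9 chr7:20191722-20191781) gave a raw spot signal of 1185 in EpiSC and 6020 in ELA-EpiSC. After normalization the levels were 10.41 and 12.43, a difference of 2.02 or 4.05-fold, and the only member difference past 2, a size that 151 of all counted genes (0.907%) reached in the same direction. Only 144 of the counted genes had a larger difference in this direction. A second probe, which overlaps the first by 9 bases and is assigned to another RefSeq transcript of Relb, gave 9.42 and 11.33, a difference of 1.91. Both probes read the same RNA on the same arrays, so the second is not a replicate. The third Relb probe lies elsewhere (chr7:20203058-20203117), carries the accession of a different transcript that was not matched to Relb in RefSeq, and measured 8.07 and 8.05. Its difference of -0.01 was the only member value below 0, so the Relb probes did not move together, and the mean of the 3 probes brought Relb down to 1.31.

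Nfkb2, the precursor of the other non-canonical subunit, had raw signals of 829 and 3402 on its single probe. The normalized levels of 9.90 in EpiSC and 11.60 in ELA-EpiSC differed by 1.70, or 3.25-fold, with 237 counted genes differing more. Both non-canonical subunits were therefore over 3-fold higher in ELA-EpiSC by their brightest probe, a distance of 16.7 spot SDs for Nfkb2 and 19.8 for Relb.

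The canonical subunits differed less. Rela, which carries the transactivation domain of the classical dimer, had raw signals of 10574 and 16514 and normalized levels of 13.49 and 13.92 (mm9 chr19:5648070-5648129). This difference of 0.43, or 1.35-fold, was 4.25 spot SDs but lay well inside the central 95% of all genes, with 2707 genes higher. Nfkb1, the precursor of the subunit that pairs with Rela, was read by 3 spots. The 2 spots of its first probe (chr3:135247621-135247680) gave differences of 0.30 and 0.31, and its second probe, printed above, gave 0.27. The levels of the first probe were 8.63 in EpiSC and 8.93 in ELA-EpiSC.

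Rel, the subunit best known from lymphocytes, was close to the limit of the arrays. Its raw signals were 31.3 and 50.3, and it was not well above background in EpiSC, so its difference depends on the scaling. Its levels were 5.99 in EpiSC and 6.39 in ELA-EpiSC, where the lowest signals among detected probes were 5.89 and 6.11. Rel thus read 1.32-fold higher in ELA-EpiSC under quantile normalization. That value is the plain difference of a single spot and not a lower bound. The log2 difference of Rel was 0.40 on this scale, 0.07 with the 75th percentile after background correction, 0.30 with the median and 3.06 with the processed scanner signal. The size of the Rel difference was thus not fixed by these arrays.

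Set within pairs, where a constant shift between the arrays cancels, the difference of Nfkb2 exceeded that of Nfkb1 by 1.40 and ranged from 1.39 to 1.49 over 14 processing alternatives. The difference of Relb exceeded that of Rela by 1.59. It ranged from 0.87, when the 3 Relb probes were averaged, to 1.81. These pairs were formed after the values were seen and carry no test.

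Of the IkB inhibitors, Nfkbie was past 1 and Nfkbia and Nfkbib were not. Nfkbie encodes IkB epsilon, a slowly acting feedback inhibitor, and its single probe (mm9 chr17:45700000-45700059) had raw signals of 239 and 996. The levels were 8.21 and 9.87, which differed by 1.66 or 3.15-fold that 260 genes exceeded. Nfkbia encodes IkB alpha, the fast feedback inhibitor that is the standard reporter of canonical activity. Its raw signals of 7576 and 9660 became 13.02 and 13.13, a difference of 0.11 or 1.08-fold. This is 1.04 spot SDs, so the Nfkbia values of both arrays could not be separated from the scatter between spots. The difference of Nfkbie exceeded that of Nfkbia by 1.55, with a range of 1.48 to 1.83 over the alternatives.

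Nfkbib encodes IkB beta, which is regulated mainly by degradation, and had 3 probes. The brightest (chr7:29544160-29544219) had raw signals of 3250 and 5377, with levels of 11.83 and 12.27 and a difference of 0.44. The second gave 10.28 and 10.46, a difference of 0.18, and the third, a dim one, gave 7.60 and 8.25, a difference of 0.65. The 3 probes thus all read higher in ELA-EpiSC and none reached 1.

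**Figure D3:**
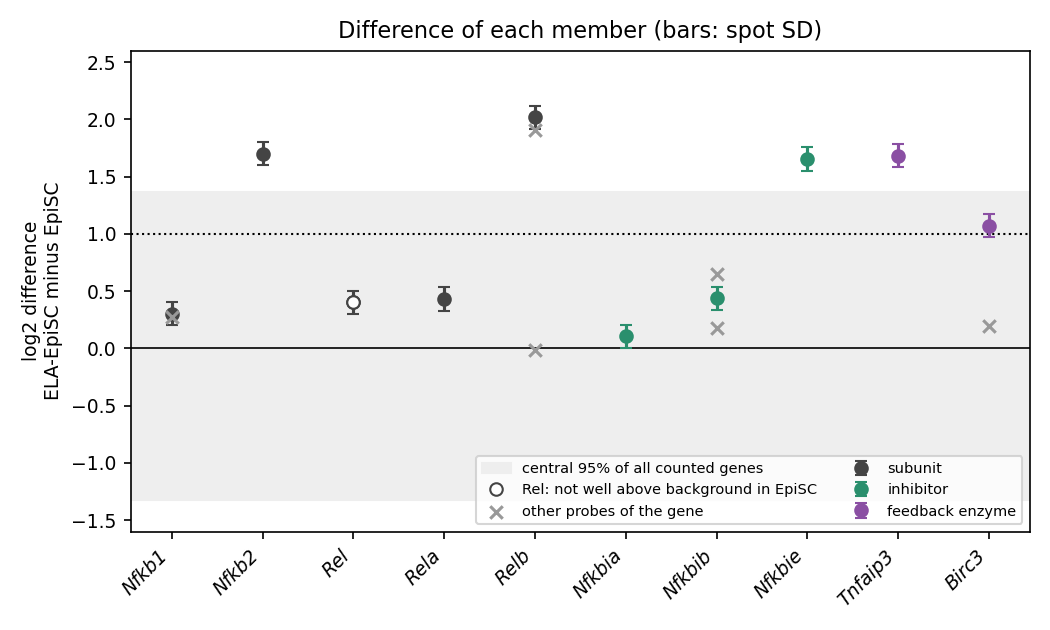
Difference in log2 signal, ELA-EpiSC minus EpiSC, of the brightest detected probe of each member, coloured by role, with the spot SD of 0.10 as error bars and further probes of the same gene as crosses. Relb, Nfkb2, Nfkbie and Tnfaip3 lie above the central 95% of all counted genes (grey, -1.32 to 1.37), Birc3 lies just above 1 (dotted line), and Rel (open circle) was not well above background in EpiSC, with a value that shifts with the scaling.

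Both feedback enzymes were past 1. Tnfaip3 encodes A20, a ubiquitin-editing enzyme that shuts the canonical branch down, and its probe (mm9 chr10:18720776-18720835) had raw signals of 433 in EpiSC and 1801 in ELA-EpiSC. Its levels of 9.01 and 10.70 differed by 1.68, or 3.21-fold, with 243 genes differing more. This exceeded the difference of Nfkbia, the other classical negative feedback gene, by 1.58, and by between 1.52 and 1.69 over the alternatives.

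Birc3 encodes cIAP2, a ubiquitin ligase that acts in TNF receptor complexes and keeps NIK low. Its brighter probe, printed above, went from a raw signal of 116 in EpiSC to 324 in ELA-EpiSC, with levels of 7.27 and 8.35. The difference of 1.07, or 2.10-fold, was the smallest called, and the EpiSC level lay below the minimum of 7.5, so that Birc3 was counted through its ELA-EpiSC level. The other probe (chr9:7856162-7856221) was dim at 6.38 and 6.57 and differed by 0.19. Just inside the threshold thus stood Birc3 at 1.07, and the members just outside it were Nfkbib at 0.44 and Rela at 0.43. Birc3 lay between these and the next called member, Nfkbie at 1.66, and the mean of its probes was 0.63.

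Each counted member kept a difference above 0 in all 14 alternatives of background correction, scaling and probe choice. The 8 spike-in probes that were detected, which read RNA added at labelling, were all lower on the ELA-EpiSC array, with a mean difference of -0.54 and a range from -0.86 to -0.26. Scaling to them adds 0.54 to every gene, and it moved the median of all counted genes by as much. On that scale Nfkbia differed by 0.64, Rela by 0.97 and Nfkbib by 0.97, still below 1, and Relb by 2.56. Birc3 was the member that changed its call, with 0.96 when arrays were scaled to the 75th percentile after background correction and 0.63 when its probes were averaged, and it fell under the minimum level with an offset of 0 and with the processed scanner signal.

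**Figure D4:**
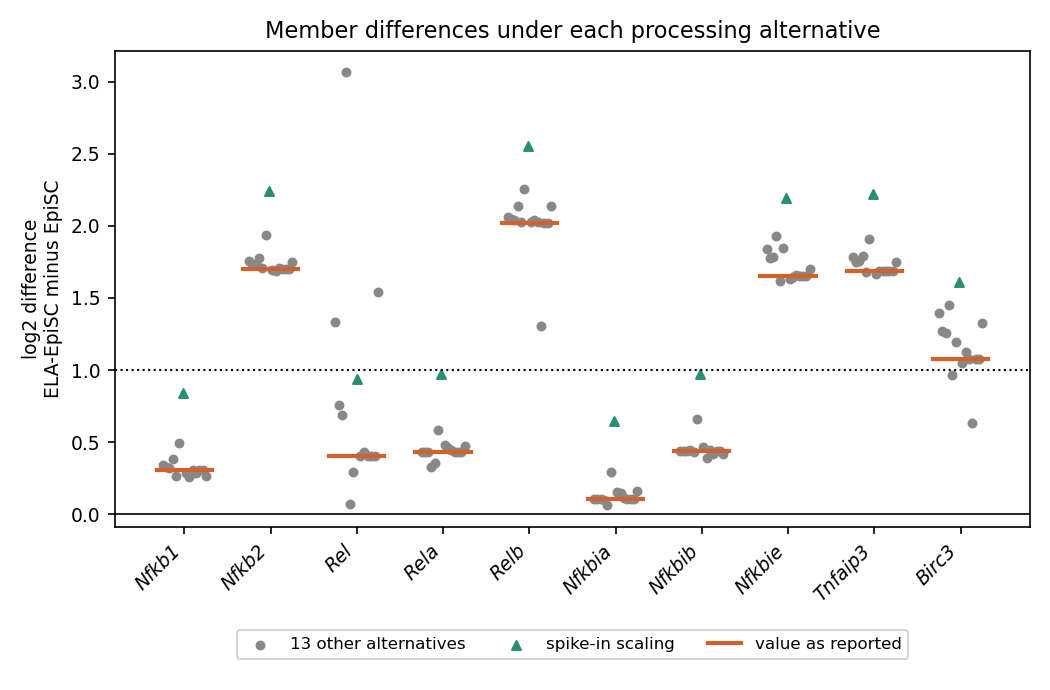
Difference of each member (log2, ELA-EpiSC minus EpiSC) as reported (orange line), under scaling to the spike-in probes (green triangles) and under the other 13 processing alternatives (grey points, 12 for Rel), with the threshold of 1 dotted. Relb, Nfkb2, Nfkbie and Tnfaip3 stay above 1 throughout, Nfkb1, Rela, Nfkbia and Nfkbib stay between 0 and 1, and Birc3 and Rel cross the line.

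The rest of the pathway was read from 7 lists with 126 further genes, all on the array, of which 108 were detected and 79 counted. In these lists 17 genes were higher in ELA-EpiSC by more than 1 and none was lower by as much, against the 4.56% and 4.47% of all counted genes, and their median difference was 0.21. Since the lists were chosen with earlier results known, these counts are a description only. Of 12 counted kinases 1 was past 1, with a list median of 0.16. The catalytic IkB kinases measured 12.86 and 13.29 for Chuk (0.43) and 9.81 and 9.80 for Ikbkb (-0.01, with a sign that turns under other scalings). Their scaffold Ikbkg measured 8.45 and 8.66 (0.21).

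The kinase past 1 was Map3k14, which encodes NIK, the kinase of the non-canonical branch. Its brighter probe measured 8.06 and 9.86 and differed by 1.80, while its other probe differed by -0.06, and the mean of both was 0.87. None of 18 counted adaptors and ubiquitin enzymes was past 1 in either direction, although 5 were higher by more than 1 with spike-in scaling and 1 was lower with the processed scanner signal. Traf2 and Traf3, which hold NIK in check, differed by 0.40 and 0.21. Of 12 other counted negative regulators, Cyld, a deubiquitinase of the pathway, was the one past 1. It measured 8.51 and 9.77, a difference of 1.26, and both of its probes exceeded 1. In 5 alternatives the number of these regulators past 1 rose to 2. Among 3 counted relatives of the IkB proteins, Bcl3, a nuclear one that binds Nfkb1 and Nfkb2 products, measured 8.26 and 10.76, a difference of 2.49.

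Of 10 counted receptors, Tnfrsf12a (the TWEAK receptor) was the one past 1 (5 were with spike-in scaling), at 13.61 in EpiSC and 15.42 in ELA-EpiSC. Of 5 counted ligands, Ltb (lymphotoxin beta) measured 11.21 and 15.06, a difference of 3.85, and Il33 measured 6.62 and 8.85, a difference of 2.22. Il33 was counted only through its ELA-EpiSC level, and in 4 alternatives the ligands past 1 fell from 2 to 1. The median of the ligands was 0.03, and its sign turned under 3 alternatives. The target genes were the list with the largest share past 1. Of 19 counted targets 11 were past 1 in ELA-EpiSC, 16 were above 0, and the median was 1.14.

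The chemokine and cytokine targets among them included Csf1, the macrophage growth factor, at 7.58 and 12.34 (a difference of 4.76), and Cxcl10, an interferon-induced chemokine, at 8.31 and 11.97 (3.66 on one probe and 1.07 on the other). The stress gene Gadd45b differed by 2.75 and the transcription factor Irf1 by 2.38, with only 0.18 on a second Irf1 probe. The antigen presentation genes Tapbp and Psmb9 differed by 1.83 and 1.06. Growth-related targets were Myc (1.47), Junb (1.43) and Ccnd1 (1.14), and Zfp36, which encodes an RNA decay factor, and the adhesion receptor Cd44 differed by 1.27 and 1.16, with a range of 0.45 to 1.63 over the 4 Cd44 probes. The counted targets not past 1 included Bcl2l1 (0.50, and -0.16 on its other probe), Ier3 (0.42), Cx3cl1 (0.26), Sod2 (0.06) and Ptges (0.01). Nos2 (-0.48), Cflar (-0.21) and Tnfrsf9 (-0.18) were also counted and were lower in ELA-EpiSC. The signs of Nos2, Cflar, Tnfrsf9, Sod2 and Ptges turned under some alternatives. Over the 4 Cflar probes the difference ranged from -0.84 to 0.34. Other textbook targets did not clear background in either state, among them Il6, Ccl20, Cxcl2, Vcam1 and Sele.

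**Figure D5:**
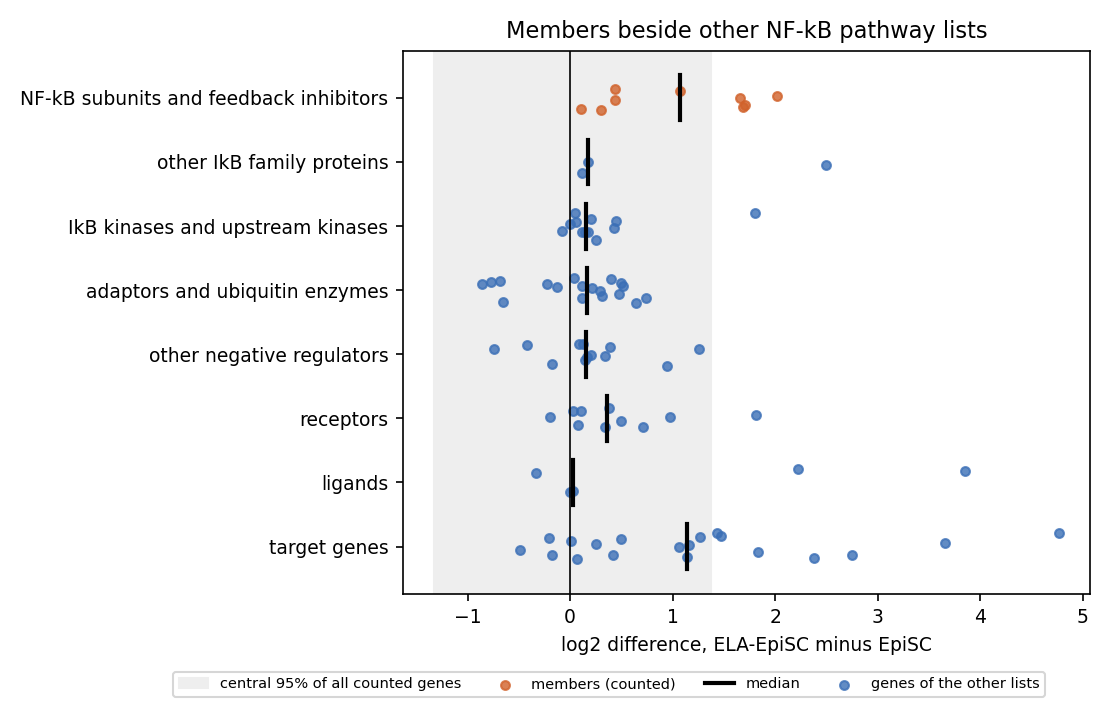
Difference in log2 signal, ELA-EpiSC minus EpiSC, of the 9 counted members (orange) and of the counted genes of 7 other NF-kB pathway lists (blue), 1 point a gene, with list medians as black bars and the central 95% of all counted genes in grey. The members (median 1.07) and the target genes (1.14) sit to the right of the kinases, adaptors and negative regulators, whose medians are between 0.15 and 0.17.

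The labelled cell state was checked against its markers. All 10 epiblast and pluripotency markers were detected on both arrays, including Pou5f1 (14.28 and 14.47) and Fgf5 (15.19 and 15.34), with a list median difference of 0.08. Pou3f1 was the one past 1, at 1.46. Their summed signal was 347761 in EpiSC and 309344 in ELA-EpiSC. Dnmt3b (17.07 and 16.24) carried that fall, and without it the sums were 209958 and 232129. Markers of cells in which NF-kB genes are abundant were read in the same way. Of 10 macrophage and blood markers 9 were detected and 4 counted, and their summed signal was 9155 in EpiSC and 12039 in ELA-EpiSC. All 4 counted ones were above 0 on their brightest detected probe, with a median of 0.45. Aif1 was the blood marker past 1, at 6.34 and 8.99, and it was counted only through its ELA-EpiSC level. Itgam (12.72 and 13.09), Cd68 (10.04 and 10.56) and Csf1r (9.56 and 9.59) differed by 0.37, 0.52 and 0.03. Over their detected probes Itgam ranged from -0.39 to 0.37 and Csf1r from -0.36 to 0.03. Under the minimum, Emr1 (-0.16), Fcer1g (-0.13) and Tyrobp (-0.21) were lower in ELA-EpiSC, and Ptprc (0.12) and Cd14 (0.37) were higher. Ptprc, the common leukocyte antigen, stayed near the limit at 6.48 and 6.60, Lyz2 did not clear background in either state, and Tyrobp was detected in EpiSC only. Of 8 fibroblast and mesenchyme markers 7 were detected, with a summed signal of 3751 and 5869. Col1a1 measured 7.07 and 10.79, a difference of 3.72, and was likewise counted only through its ELA-EpiSC level. Col3a1 differed by 1.88 under the minimum level, and Col1a2 (0.08), Thy1 (0.05), Pdgfrb (0.50) and Dcn (-0.33) differed by less than 1. Of 6 endothelial markers 5 were detected, with a summed signal of 9137 in EpiSC and 5527 in ELA-EpiSC, and Vwf differed by -3.76. Kdr, the brightest of them (12.73 and 12.30), differed by -0.43, while its other probe differed by 1.49. Pecam1 (0.07), Cdh5 (-0.01) and Tek (0.22) were under the minimum and differed little. The part of such cells in the member differences was not tested, and in bulk RNA more cells with a transcript and more transcript per cell cannot be told apart. Each state had 1 array, so culture, RNA pool and cell state cannot be told apart either.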

How the data were processed

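RNA from 3 pooled experiments was labelled with Cy3 (50 ng per the labels) for each of 2 arrays on 1 slide and in 1 scan. Per the file headers, the deposited intensity values are mean and median pixel intensity of each spot and its local background from Agilent Feature Extraction 10.7.3.1 (9.1 in the submitters' processing notes), with probe positions in mm9, and 55681 probes on 59305 spots. The authors also deposited log2 values, quantile normalized with limma, whose centring is not given in the sources used here. These were used as an alternative.

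Mean intensity was corrected with normexp (offset 50, all spots) in limma 3.58.1 (R 4.3.3), control and flagged spots were left out, and arrays were quantile normalized and log2 transformed. Spots of a probe were averaged. A probe was detected when at least a share of 0.5 of its spots was well above background, which held for 65.9% of probes in EpiSC and 65.0% in ELA-EpiSC. The gene value was that of the brightest probe detected on at least 1 array. With 1 array per group no test was made, and the number of arrays limits the precision. Background correction and quantile normalization were tested on changes simulated on brighter spots of the EpiSC array. Dim probes, detection and probe choice were not covered.

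All 10 members were named with every probe. List genes past 1, the other counted target genes and markers of other cell types were also named. So were Chuk, Ikbkb, Ikbkg, Map3k14, Traf2, Traf3 and Cyld, whatever their value. Members and lists were chosen with earlier results of these data known. Promoters came from RefSeq (GRCm38.p6). Of the member probes, 14 of 16 matched the same RefSeq symbol by accession. The 14 alternatives changed background correction, scaling, pixel summary, flag handling or probe choice.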

Additional observations from a re-analysis of the deposited data

How the results depend on the processing

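The number of members higher in ELA-EpiSC by more than 1 was 5, and it stayed at 4 or 5 in all 14 alternatives, with Birc3 the gene lost each time. No member was lower by more than 1 under any of them. A threshold of 2.5 left 0 members and a minimum level of 9 left 4. The median difference of the members, 1.07, was 1.27 with a normexp offset of 16, 1.25 with no background correction, 0.96 with the 75th percentile after normexp, 1.19 with the median after normexp, 1.61 with spike-in scaling, 0.87 with the mean of all detected probes and 1.33 with the deposited log2 values. For the latter, whether the arrays were centred is unknown. Scaling to the median or the spike-in probes moved the median of all genes to 0.15 and 0.54, and the median of the kinases went from 0.16 to 0.70 with the spike-in probes. The median of the ligands, 0.03, turned to -0.0037 with an offset of 0, -0.0036 with an offset of 16 and -0.036 with the 75th percentile after normexp. The cause was not tested. None of 139 single member values under the alternatives changed sign. Signal over background limits Rel and the dimmer Birc3 probe most. No paired analysis was possible because each state had 1 array.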

Other observations

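Pathway genes too dim to be counted also had values. Of 29 such genes, which were detected but averaged under 7.5, 7 were higher in ELA-EpiSC by more than 1 and 0 were lower by as much. The share of all equally dim genes past 1 was not worked out, so this count is no result about the pathway. The 7 genes were named after their values were seen. The inflammatory targets among them were Cxcl1, a neutrophil chemokine, at 6.36 in EpiSC and 8.30 in ELA-EpiSC, Icam1, a leukocyte adhesion molecule, at 6.55 and 8.19, Ptgs2, the inducible cyclooxygenase, at 6.30 and 7.82, and Mmp9, a matrix protease, at 6.36 and 7.91. The kinase gene Map3k8 measured 6.63 and 7.78, and the ligand gene Lta 6.44 and 7.58. The receptor gene Tnfrsf13c measured 6.70 and 7.80 on the brighter of its 2 probes, and its other probe differed by only 0.02. The offset added in background correction shrinks differences of such dim probes, and under the alternatives Cxcl1 ranged from 1.75 to 3.74 and Ptgs2 from 1.31 to 3.36.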
